A study of Mus musculus with 3 samples.

Results

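The genes described here are 43 mouse genes of DNA replication and S phase, given as a fixed list of names that covers origin licensing, the replicative helicase, the polymerases, nucleotide supply and the G1/S switch. Of these, 42 had at least 1 probe set annotated to that gene alone, out of 17097 genes so represented on the arrays, and Chaf1a, a subunit of the histone chaperone CAF-1, had none. The 42 genes were read by 73 probe sets, and where a gene had several, the one with the highest mean stands for it. The list is defined by gene names with no threshold on measured values, but it was chosen with earlier results of these data known. The probe set that stands for a gene was picked by its measured mean.

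The series holds 3 Affymetrix arrays of mesenchymal progenitors from adult mouse bone marrow, each with 1 µg of total RNA. All cells were labelled PaS+, came from mice aged 8 weeks of a strain written C56Bl/6, spent 7 days in 1% oxygen in MesenCult complete medium and were transduced overnight with lentiviral shRNA vectors, and RNA was taken 4 days after transduction. The groups differed in the shRNA: shHIF-1a against the HIF-1α subunit, shHIF-2a against the HIF-2α subunit, and shCTR as the control hairpin, with 1 array each. The control cells therefore also carried a lentivirus and were also kept in low oxygen, so no array shows untransduced cells or cells in ambient oxygen. The labels name neither the hairpin sequences nor whether animals were pooled, and with no replicate no difference was tested and no p-value is given.

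DNA is copied once per cell cycle because loading and firing of the replicative helicase are kept apart in time. In G1 the origin recognition complex, Cdc6 and Cdt1 load the helicase made of Mcm2 to Mcm7 onto DNA, and in S phase Cdc45 and the GINS complex turn it on, after which primase and the polymerases copy both strands. Many of these genes are transcribed by E2F factors once cyclin-dependent kinases release them from retinoblastoma proteins, so their transcripts mark cells that have passed from rest into the cycle.

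Of the 43 genes, 35 had a promoter window in the RefSeq table of assembly GRCm38.p6, which runs from 250 bases before to 50 bases after an annotated transcription start. The 5 windows below are shown because they carry words that E2F factors are known to bind, in 4 genes that were brighter on the shHIF-2a-labelled array than on the shCTR array and in Pold1, which read the same on both. Capitals mark the words TTTCCCGC, TTTGGCGC, TTTCGCGC and TTTGCCGC on either strand, overlapping words included. The windows lie at chr8:75109259-75109558 on the plus strand (Mcm5), and on the minus strand at chr1:128359656-128359955 (Mcm6), chr5:138171834-138172133 (Mcm7), chr5:151651159-151651458 (Rfc3) and chr7:44548766-44549065 (Pold1).
Mcm5: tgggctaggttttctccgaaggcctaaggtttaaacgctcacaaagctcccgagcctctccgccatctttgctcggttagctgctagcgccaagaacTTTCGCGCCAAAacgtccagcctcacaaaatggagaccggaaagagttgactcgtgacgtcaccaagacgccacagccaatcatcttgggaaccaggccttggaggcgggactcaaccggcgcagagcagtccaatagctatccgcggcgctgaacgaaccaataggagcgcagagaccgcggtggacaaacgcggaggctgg
Mcm6: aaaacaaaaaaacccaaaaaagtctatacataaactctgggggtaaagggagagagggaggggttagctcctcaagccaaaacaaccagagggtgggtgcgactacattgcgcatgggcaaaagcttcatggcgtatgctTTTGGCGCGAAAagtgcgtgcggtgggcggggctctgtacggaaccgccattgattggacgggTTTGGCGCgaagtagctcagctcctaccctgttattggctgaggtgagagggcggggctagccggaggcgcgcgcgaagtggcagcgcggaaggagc
Mcm7: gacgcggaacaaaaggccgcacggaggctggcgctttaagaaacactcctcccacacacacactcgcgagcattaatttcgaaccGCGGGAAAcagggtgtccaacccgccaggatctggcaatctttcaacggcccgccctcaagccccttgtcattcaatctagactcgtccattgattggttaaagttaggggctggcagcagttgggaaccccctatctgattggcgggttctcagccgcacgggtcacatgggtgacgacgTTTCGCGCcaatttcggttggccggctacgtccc
Rfc3: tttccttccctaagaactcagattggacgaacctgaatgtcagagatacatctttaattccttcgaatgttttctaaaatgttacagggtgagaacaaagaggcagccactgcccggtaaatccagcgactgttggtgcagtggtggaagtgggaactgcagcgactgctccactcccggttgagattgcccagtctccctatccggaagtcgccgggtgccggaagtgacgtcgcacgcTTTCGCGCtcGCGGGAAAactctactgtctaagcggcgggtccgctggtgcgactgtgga
Pold1: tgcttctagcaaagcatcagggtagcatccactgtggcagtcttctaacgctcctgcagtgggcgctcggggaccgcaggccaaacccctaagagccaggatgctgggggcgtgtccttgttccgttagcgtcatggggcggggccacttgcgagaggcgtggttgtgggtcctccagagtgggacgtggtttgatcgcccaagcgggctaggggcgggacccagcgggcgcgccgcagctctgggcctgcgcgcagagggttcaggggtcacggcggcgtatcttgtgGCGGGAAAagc
Counted from the start base as 1, with no base 0, the words begin at −153 and −149 in Mcm5, at −110, −106 and −47 in Mcm6, at −165 and 17 in Mcm7, at −10 and 1 in Rfc3 and at 40 in Pold1. The first pair of words overlaps in Mcm5 and in Mcm6. Mcm7 has another window in the table, at chr5:138171217-138171516, which holds no such word. A match of letters is a description of the window and not evidence of binding.

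The genes that the hairpins target serve as a check on the labels. Hif1a read 332.4 on the shHIF-1a array and 332.4 on the shHIF-2a array, against 352.1 on the shCTR array, so it did not separate the hairpins. It was 1.06-fold lower with each of them, so these values show no clear loss of the Hif1a transcript with its own hairpin. Epas1, which encodes HIF-2α, read 9.44 with shHIF-1a and 3.21 with shHIF-2a, against 5.09 with shCTR. The arrays are therefore called the shHIF-1a-labelled and shHIF-2a-labelled arrays, and every direction below rests on those labels. The highest of 23 nonspecific control probe sets over the 3 arrays read 3.47. This value is called the nonspecific level here, and readings under it were raised to it before a fold was taken, which makes that fold a lower bound ("at least"). Epas1 was under this level on the shHIF-2a-labelled array, so its 1.47-fold lower value there than with shCTR is such a bound. With shHIF-1a, Epas1 was 1.85-fold higher than with shCTR. The upper quartile of all probe sets was 13.0 on the shHIF-1a-labelled array, 13.9 on the shHIF-2a-labelled array and 9.81 on the shCTR array. The 14 hybridisation controls had median log2 differences of 0.03 for shHIF-1a over shCTR and −0.87 for shHIF-2a over shCTR. All 9 mesenchymal progenitor markers on the array were above the nonspecific level on each array, with summed levels of 1295, 1075 and 1254 on the shHIF-1a-labelled, shHIF-2a-labelled and shCTR arrays. Of 9 haematopoietic markers, Cd68 alone passed that level, at 7.24 on the shHIF-2a-labelled array, and their summed levels were 12.0, 16.2 and 11.9 on the same arrays. Of 7 endothelial markers, Egfl7 alone passed it, and the sum was 11.6 on each array. None of these markers was listed at 0.

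The replication genes were brightest on the shHIF-2a-labelled array almost throughout. Of the 42 genes, 40 had their highest value there, 0 had it on the shHIF-1a-labelled array and 0 on the shCTR array, whereas 4272 of all 17097 genes were brightest on the shHIF-2a-labelled array. The exceptions were ties: Pold1 was equal on the shHIF-2a-labelled and shCTR arrays, and E2f1 was equal on the shHIF-2a-labelled and shHIF-1a-labelled arrays. Both counts include genes under the nonspecific level, and a tie counts for no array. Orc1, Pole, Ung and Chaf1b, among the 40, were under that level on every array. Of the 17097 genes, 8917 were above it on at least 1 array. The median level of the 42 genes was 9.30 on the shHIF-1a-labelled array, 14.6 on the shHIF-2a-labelled array and 5.93 on the shCTR array, and their summed levels were 1074, 1520 and 963.5. In RNA from a whole culture, more cells in S phase and more of these transcripts per cell cannot be told apart.

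The number of replication genes above the nonspecific level was 33 on the shHIF-1a-labelled array, 38 on the shHIF-2a-labelled array and 28 on the shCTR array. All genes followed the same order, with 8750, 8828 and 8315 of 17097 above it on these arrays. Those 28 were above it on all 3 arrays. Orc1, Pole, Ung and Chaf1b were under it on every array, at 1.29 to 3.07, and enter no comparison. The other 10, Cdc6, Mcm2, Mcm3, Mcm5, Cdc45, Gins1, Mcm10, Pola1, Tk1 and Uhrf1, were under it on the shCTR array and above it on the shHIF-2a-labelled array on the probe sets that represent them, so by these they could enter only with a difference upward. Mcm2 lay just under it at 3.45, and its second probe set read 6.62 and 13.3 with shHIF-1a and shHIF-2a, against 4.64 with shCTR, above it on every array.

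**Figure D1:**
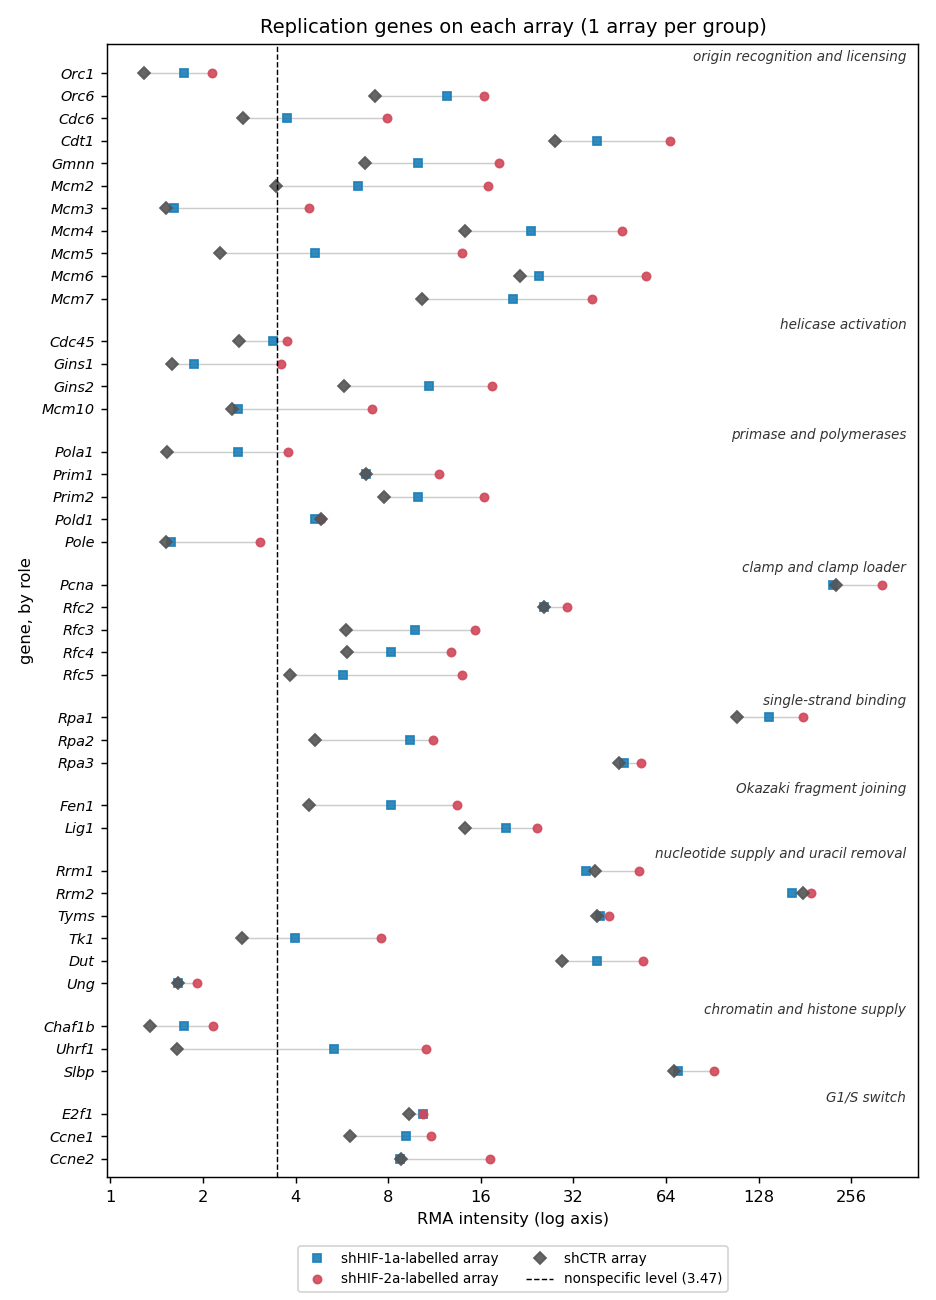
RMA intensity (log axis) of each of the 42 replication genes on the shHIF-1a-labelled array (squares), the shHIF-2a-labelled array (circles) and the shCTR array (diamonds), 1 array per group, grouped by role, with the nonspecific level of 3.47 as a dashed line. The circle lies farthest right for 40 of the 42 genes, the exceptions being the ties of Pold1 and E2f1.

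Setting the shHIF-2a-labelled array against the shCTR array addresses how the HIF-2α hairpin bears on these genes in cells kept in low oxygen. Genes for loading the helicase were higher nearly as a block, and the clamp loader, GINS and flap-removal genes had members beyond 2-fold. Uhrf1, a gene of DNA methylation maintenance, was also beyond 2-fold, as a lower bound. Ribonucleotide reductase, thymidylate synthase, Pold1 and E2f1 differed little on the probe sets that represent them. The second probe sets of the reductase genes Rrm1 and Rrm2 gave larger log2 differences, of 1.53 and 0.40. Of the 38 replication genes above the nonspecific level on either array, 19 were at least 2-fold higher and 0 at least 2-fold lower, against 7.62% of 8886 genes higher and 0.518% lower. The median log2 difference of the 38 genes was 0.99, from 0.00 to 2.29, against 0.14 for all genes. Medians here and below count a lower bound at the bound.

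Because genes that passed the nonspecific level through the shHIF-2a-labelled array alone had to differ upward, the count was also taken over genes above it on the shCTR array. There 13 of 28 replication genes were at least 2-fold higher, or 46.4%, against 6.37% of 8315 genes, with a median of 0.92 against 0.12. Of these 28 genes, 27 were above 0 and 1 was equal, whereas of all 8315 genes 5345 were above 0 (64.3%), 1638 below and 1332 equal. Cyclic loess scaling, which evens out trends with brightness between arrays, kept 13 of the 19 genes past 2-fold. These were 13 of 35 replication genes, against 4.82% of 8762 genes, and 32 of the 35 were above 0. Adding 16 to every value before taking log2, which shrinks the differences of dim genes, left Mcm4 and Mcm7. These were 2 of 38 genes, against 0.777% of 8886.

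Licensing genes held the most of these differences, with 9 of the 10 above the nonspecific level at least 2-fold higher and a median of 1.41. The 6 of them above that level on the shCTR array were all past 2-fold. Mcm2, a helicase subunit, read 6.37 on the shHIF-1a-labelled array and 16.9 on the shHIF-2a-labelled array, against 3.45 on the shCTR array, and was at least 4.88-fold higher with shHIF-2a. Mcm5 read 4.64 and 13.9 on the shHIF-1a-labelled and shHIF-2a-labelled arrays, against 2.27 with shCTR, and was at least 4.01-fold higher. Mcm7 read 20.4 and 36.9 on these arrays, against 10.3, and was 3.58-fold higher (1.84 on the log2 scale). In these 3 genes the shHIF-1a-labelled array lay between the others.

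Mcm4 read 23.3 with shHIF-1a and 45.9 with shHIF-2a, against 14.2 with shCTR, a 3.24-fold higher value with shHIF-2a. Mcm6 read 24.8 and 55.3 on the shHIF-1a-labelled and shHIF-2a-labelled arrays, against 21.4, and was 2.58-fold higher on the second of them. Its shHIF-1a-labelled value was close to the shCTR value, so the shHIF-2a-labelled array stood alone for this subunit. Mcm3 read 1.61 and 4.41 with the HIF hairpins, against 1.52 with shCTR, and could be given only as a bound of 0.34 on the log2 scale. Whether Mcm3 differed 2-fold cannot be read from that bound, and with low values not raised its difference was 1.54.

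The factors that place the helicase on DNA were also higher. Cdt1, which brings the MCM ring to the origin, read 38.2 with shHIF-1a and 65.9 with shHIF-2a, against 27.8 with shCTR, and was 2.37-fold higher with shHIF-2a. Gmnn encodes geminin, the inhibitor of Cdt1 that keeps licensed origins from being licensed again, and it read 9.97 and 18.4 on the shHIF-1a-labelled and shHIF-2a-labelled arrays, against 6.75, a 2.73-fold difference for the second. Factor and inhibitor were thus higher on the same array. Orc6, a subunit of the origin recognition complex, read 12.4 and 16.4, against 7.23 with shCTR, and was 2.27-fold higher with shHIF-2a. Cdc6, the ATPase that works with that complex, read 3.75 and 7.93, against 2.69, and was at least 2.28-fold higher with shHIF-2a.

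Among the helicase activators 2 of 4 were past 2-fold, but Gins2 alone was above the nonspecific level on the shCTR array. Mcm10, Cdc45 and Gins1 could enter only with a difference upward. Gins2, a GINS subunit, read 10.9 on the shHIF-1a-labelled array and 17.4 on the shHIF-2a-labelled array, against 5.77 on the shCTR array, and was 3.02-fold higher with shHIF-2a. Its probe set is of a kind that can also read related transcripts. Mcm10, which is needed to start unwinding, read 2.61 and 7.08 with the HIF hairpins, against 2.48, and was at least 2.04-fold higher with shHIF-2a. Cdc45 and Gins1 were above the nonspecific level on the shHIF-2a-labelled array alone, with bounds of 0.11 and 0.04 on the log2 scale, so little can be said of their size.

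Primase and polymerase genes gave mixed values, with 1 of 4 past 2-fold and a median of 0.46. Prim2, the large primase subunit, read 10 with shHIF-1a and 16.4 with shHIF-2a, against 7.73 with shCTR, and was 2.13-fold higher with shHIF-2a. Prim1, the catalytic subunit of primase, read 6.79 and 11.7, against 6.79, so the shHIF-1a-labelled value was equal to the shCTR value and the log2 difference with shHIF-2a was 0.79. Pold1, the catalytic subunit of polymerase δ, read 4.64 and 4.85, against 4.85 with shCTR. It was the replication gene above the nonspecific level that did not differ between the shHIF-2a-labelled and shCTR arrays. Equal values were common, at 1332 of 8886 genes in this comparison. The promoter window of Pold1 carries an E2F word. Pola1, the catalytic subunit of polymerase α, had a bound of 0.12.

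In the clamp loader, which opens the PCNA ring and sets it on DNA, 3 of the 4 listed subunits were past 2-fold. Rfc5 read 5.69 on the shHIF-1a-labelled array and 13.9 on the shHIF-2a-labelled array, against 3.85 on the shCTR array, and was 3.62-fold higher with shHIF-2a. Rfc3 read 9.77 and 15.3 on these arrays, against 5.82, a 2.62-fold difference with shHIF-2a. Rfc4 read 8.17 and 12.8, against 5.87, and was 2.19-fold higher with shHIF-2a. Rfc2, the remaining listed subunit, read 25.6 and 30.6, against 25.6, with a log2 difference of 0.26. Pcna, the sliding clamp itself, read 223.6 with shHIF-1a and 321.4 with shHIF-2a, against 227.8 with shCTR, and was 1.41-fold higher with shHIF-2a. For Pcna the shHIF-2a-labelled array stood apart and the other arrays read nearly alike. Rfc2 showed this on the probe set that represents it but not on another, which read 4.14 and 4.14 with shHIF-1a and shHIF-2a, against 4.52 with shCTR.

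Single-strand binding and Okazaki fragment genes each had 1 member past 2-fold. Rpa2, a subunit of the RPA complex that coats unwound DNA, read 9.44 with shHIF-1a and 11.2 with shHIF-2a, against 4.64 with shCTR, and was 2.42-fold higher with shHIF-2a. The other RPA subunits, Rpa1 and Rpa3, had log2 differences of 0.71 and 0.24. Fen1, the nuclease that trims the flaps of Okazaki fragments, read 8.17 and 13.4, against 4.43 with shCTR, and was 3.02-fold higher with shHIF-2a. Lig1, the ligase that then seals the nick, differed by 0.78 on the log2 scale.

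Among the nucleotide supply genes 1 of 5 was past 2-fold, with a median of 0.47. That gene, Tk1, was under the nonspecific level on the shCTR array, so it could enter only with a difference upward. Over genes above that level on the shCTR array it was 0 of 4, with a median of 0.30. Tk1, the thymidine kinase of the salvage pathway, read 3.99 with shHIF-1a and 7.61 with shHIF-2a, against 2.68 with shCTR, and was at least 2.19-fold higher with shHIF-2a. Rrm2, the small subunit of ribonucleotide reductase, read 164.7 and 189.0, against 179.0, a log2 difference of 0.08 with shHIF-2a. Its second probe set read 96.5 and 129.1, against 97.7, a log2 difference of 0.40 with shHIF-2a. Tyms, which makes thymidylate and whose probe set can also match related transcripts, read 39.1 and 41.7, against 38.2, and differed by 0.13. Rrm1, the large reductase subunit, differed by 0.47 on the probe set that represents it but was past 2-fold when its probe sets were averaged, and Dut, which removes dUTP, by 0.88.

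Of the chromatin genes, Uhrf1, which brings maintenance DNA methylation to newly copied strands, read 5.34 with shHIF-1a and 10.6 with shHIF-2a, against 1.65 with shCTR, and was at least 3.05-fold higher with shHIF-2a. Its second probe set was under the nonspecific level on every array, at 2.26 and 2.26, against 1.35 with shCTR. Slbp, which binds the stem-loop of histone mRNAs, differed by 0.43. No gene of the G1/S switch reached 2-fold. Ccne2, a cyclin E gene, came nearest, at 8.77 with shHIF-1a and 17.1 with shHIF-2a, against 8.81 with shCTR, or 1.94-fold higher with shHIF-2a. Ccne1, the other cyclin E gene, differed by 0.88, and E2f1, an activating E2F factor, read 10.4 and 10.4, against 9.32, a log2 difference of 0.15.

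**Figure D2:**
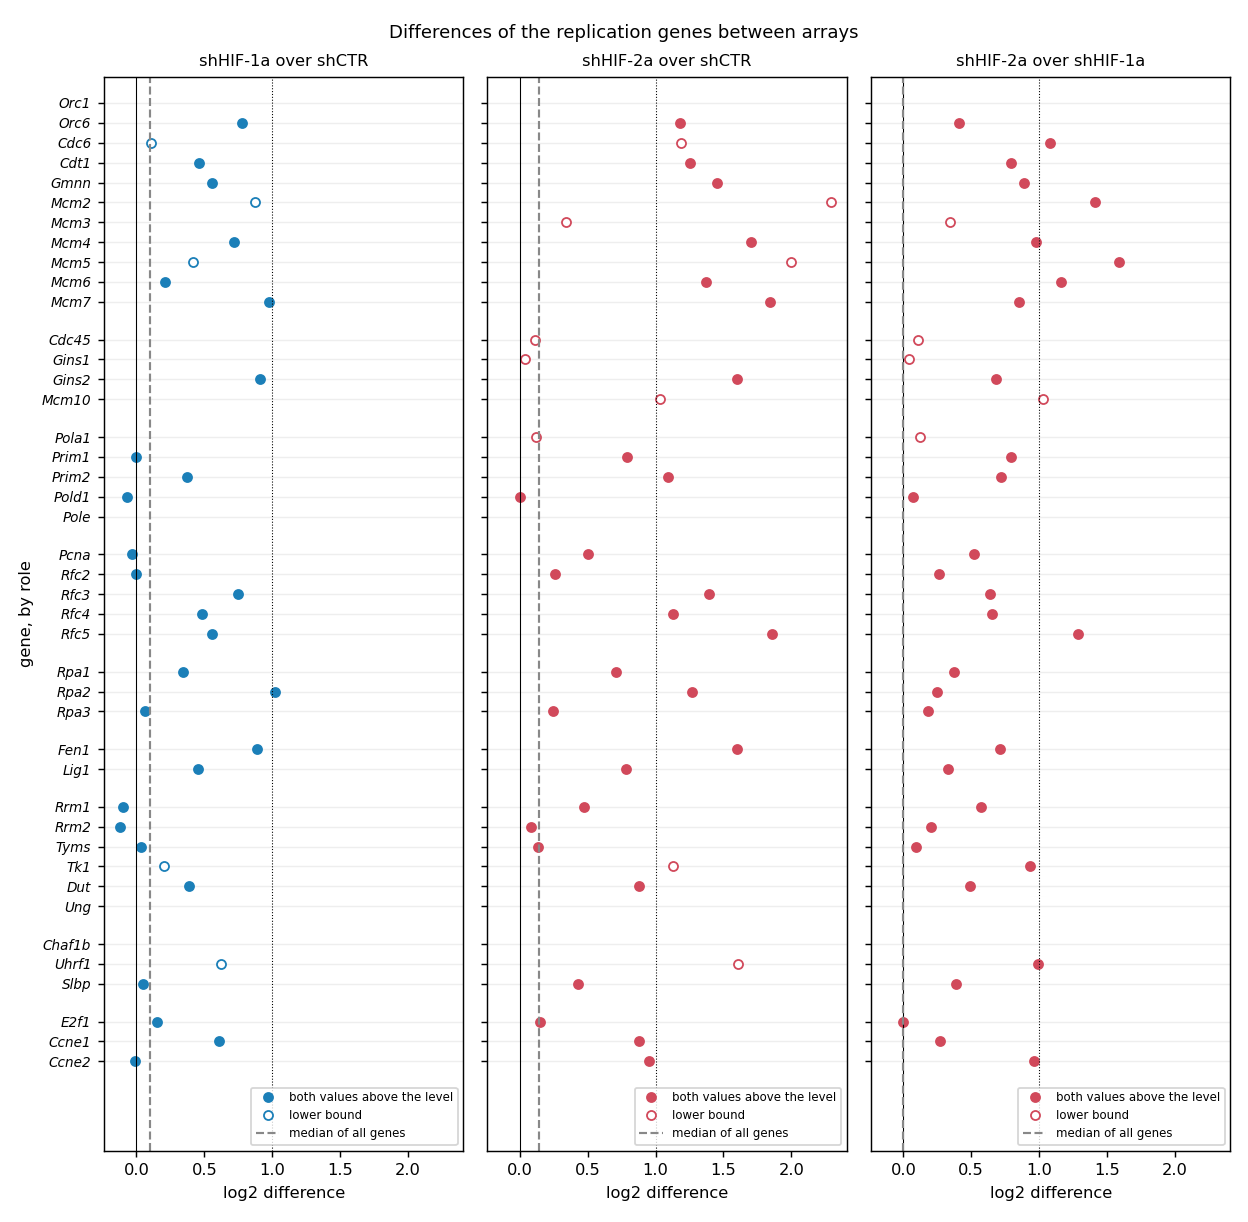
Log2 difference of each replication gene for shHIF-1a over shCTR, shHIF-2a over shCTR and shHIF-2a over shHIF-1a (filled: both values above the nonspecific level; open: lower bounds; dotted line at 1: 2-fold; dashed line: median of all genes). With shHIF-2a over shCTR, 19 points lie at or beyond 2-fold and 0 lie below 0 (open points cannot), whereas with shHIF-1a over shCTR 1 point does and 5 lie below 0.

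The shHIF-1a-labelled array against the shCTR array takes up that question for the HIF-1α hairpin. Hif1a itself was only 1.06-fold lower there, so the array does not show that the hairpin reduced its target transcript. This comparison uses the same shCTR array, so an unusual value there would move both comparisons alike. Licensing genes again read higher, but 1 replication gene reached 2-fold, and Rrm1, Rrm2, Pcna and Pold1 were slightly below their shCTR values on the probe sets that represent them, although a second probe set of Rrm1 was 1.25 higher on the log2 scale. Rpa2 was 2.03-fold higher, at 9.44 with shHIF-1a against 4.64 with shCTR. Of 33 replication genes above the nonspecific level on either array, this made 1 at least 2-fold higher, against 4.08% of 8796 genes, and 0 at least 2-fold lower, against 0.0568%. Over genes above that level on the shCTR array it was 1 of 28, against 3.37% of 8315 genes. These shares were close to the background of all genes.

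The median log2 difference of the 33 genes was 0.39, against 0.10 for all genes. Over genes above the nonspecific level on the shCTR array it was 0.38 against 0.08. Of these 28 replication genes, 21 were above 0 (75%), 5 below and 2 equal. Of all 8315 genes, 5255 were above 0 (63.2%), 1362 below and 1698 equal. The 6 licensing genes above the nonspecific level on the shCTR array were all above 0, with a median of 0.64. Mcm7 came nearest to 2-fold at 1.98-fold higher, with Gins2 at 0.91, Fen1 at 0.89 and Mcm2 at a bound of 0.87 on the log2 scale. The genes below 0 were Rrm2 (−0.12), Rrm1 (−0.10), Pold1 (−0.07), Pcna (−0.03) and Ccne2 (−0.01). After cyclic loess scaling 0 replication genes reached 2-fold, against 2.41% of all genes. Of 32 replication genes, 21 were then above 0 and 11 below, and the median was 0.26 against 0.01 for all genes.

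The direct comparison of the shHIF-2a-labelled with the shHIF-1a-labelled array leaves out the shCTR array. All the replication genes at least 2-fold higher in it were licensing, helicase-activation or clamp loader genes. Of 38 genes, 6 were at least 2-fold higher with shHIF-2a and 0 at least 2-fold lower, against 1.18% and 0.834% of 8878 genes, and over genes above the nonspecific level on the shHIF-1a-labelled array it was 5 of 33, against 1.09% of 8750. Mcm5 was 3.0-fold higher, at 13.9 with shHIF-2a against 4.64 with shHIF-1a. Mcm2 was 2.66-fold higher, Rfc5 2.45-fold, Mcm6 2.23-fold and Cdc6 2.11-fold, and Mcm10 was at least 2.04-fold higher. Over genes above that level on the shHIF-1a-labelled array, 32 of 33 differences were above 0 and E2f1 was equal, with a median of 0.65. Of all 8750 genes there, 3858 were above 0 (44.1%), 2187 below and 2705 equal, with a median of 0.00.

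Genes that came just under 2-fold in this comparison were Uhrf1 (1.99-fold), Mcm4 (1.97-fold) and Ccne2 (1.95-fold). Pcna was 1.44-fold higher with shHIF-2a, at 321.4 against 223.6 with shHIF-1a. The bright ribonucleotide reductase genes were higher by 0.57 (Rrm1) and 0.20 (Rrm2) on the log2 scale. Their second probe sets gave 0.28 and 0.42. After cyclic loess scaling 4 of the 6 genes stayed past 2-fold, all but Cdc6 and Mcm10. These were 4 of 35 replication genes, against 1.08% of all genes, and 34 of the 35 differences were above 0.

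Dim genes as a whole read higher on the HIF hairpin arrays than on the shCTR array. The replication genes were therefore also set beside genes of like brightness, in bands of mean intensity chosen after the values were seen. Only genes above the nonspecific level on the denominator array were counted, so that none had to differ upward. With shHIF-2a over shCTR, the replication genes at least 2-fold higher were 1 of 2 with a mean under 8, 8 of 12 from 8 to 16, 4 of 10 from 16 to 64, and 0 of 4 from 64 up. The shares of all genes in those bands were 7.73%, 17.7%, 5.57% and 0.555%. In the bands with more than 2 replication genes, their medians were 1.16, 0.83 and 0.47 from dim to bright, and those of all genes 0.36, 0.16 and 0.01. With shHIF-1a over shCTR the medians in these bands were 0.59, 0.30 and 0.01, against 0.30, 0.12 and 0.00 for all genes. With shHIF-2a over shHIF-1a the medians in the 4 bands were 1.04, 0.68, 0.53 and 0.38, against 0.00 in each.

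**Figure D3:**
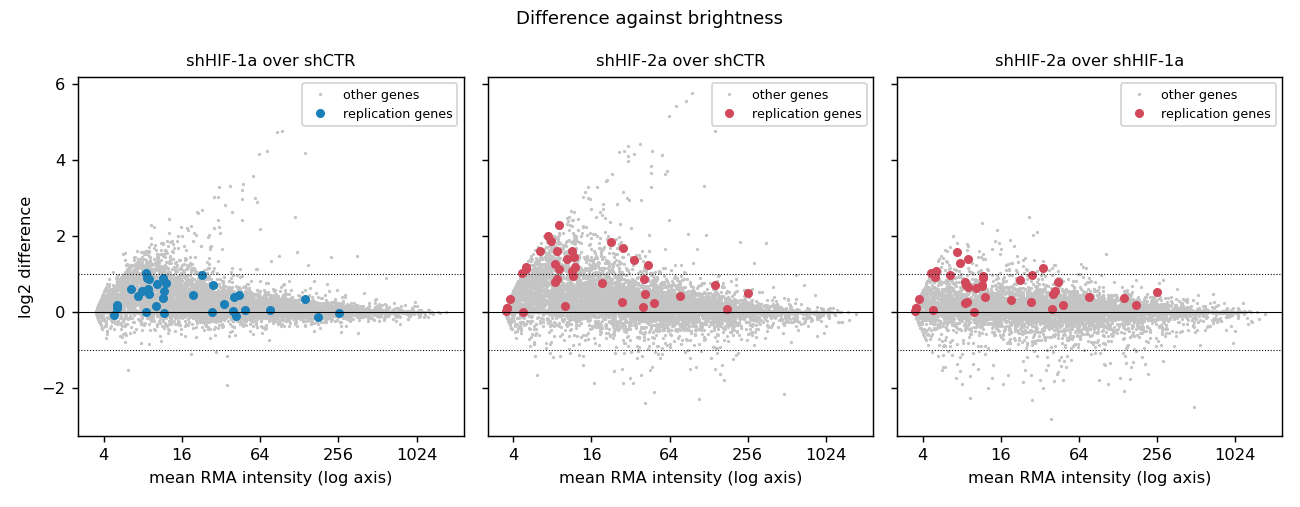
Log2 difference against mean RMA intensity (log axis) for replication genes (large points) and all other genes above the nonspecific level (small points) in the 3 comparisons; dotted lines mark 2-fold. With shHIF-2a over shCTR many of the replication genes lie in the upper part of the cloud, where other dim genes also spread upward, and others, such as Pold1 (0.00) and E2f1 (0.15), lie near 0.

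Different probe sets of a gene did not always read alike, which gives a technical spread within an array pair. Over 2710 genes with several probe sets above the nonspecific level on all arrays, the pooled SD of the log2 difference between probe sets of a gene was 0.29 for shHIF-1a over shCTR, 0.36 for shHIF-2a over shCTR and 0.18 for shHIF-2a over shHIF-1a. This spread says nothing of the spread between cultures. The probe sets of Rrm1 did not give the same picture. Its second probe set read 16 on the shHIF-1a-labelled array and 19.4 on the shHIF-2a-labelled array, against 6.75 on the shCTR array, or 1.25 and 1.53 higher on the log2 scale, against −0.10 and 0.47 for the probe set that represents it. The second probe set of Cdt1 read 8.05 and 18.0, against 3.59, a log2 difference of 2.33 with shHIF-2a against 1.25 for the first. That of Mcm7 gave 1.16 against 1.84, that of Mcm2 1.52 against 2.29 and that of Prim1 1.11 against 0.79. Prim2 was past 2-fold on its first probe set at 1.09 and short of it on its second at 0.81.

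Genes of the pathway outside the list showed the same direction with fewer members past 2-fold. Of 42 further replication genes, 35 were on the array and 30 above the nonspecific level. With shHIF-2a over shCTR, 6 of the 30 were at least 2-fold higher and 0 lower, against 7.62% and 0.518% of all genes, with a median of 0.56. Over genes above that level on the shCTR array, which did not have to differ upward, it was 4 of 23, against 6.37%. Hells, a chromatin remodeller, read 8.10 with shHIF-1a and 21.9 with shHIF-2a, against 3.41 with shCTR, and was at least 6.32-fold higher with shHIF-2a. Orc5, an origin recognition subunit, was 2.75-fold higher with shHIF-2a, and Dbf4, the activator of the kinase that fires origins, 2.44-fold. Pole2, a subunit of polymerase ε, was 2.34-fold higher, Wdhd1, which ties polymerase α to the helicase, at least 2.24-fold and the histone chaperone gene Asf1b 2.22-fold. With shHIF-1a over shCTR 2 of 25 were past 2-fold, against 4.08% of all genes, with a median of 0.26. Over genes above the level on the shCTR array it was 1 of 23, against 3.37%.

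Other genes of G1/S control gave few differences but some large ones. Of 20 above the nonspecific level, 5 were at least 2-fold higher with shHIF-2a over shCTR and 0 lower, with a median of 0.21. The shares of all genes were 7.62% and 0.518%. Over genes above that level on the shCTR array it was 3 of 18 higher, against 6.37%. Ccna2, the cyclin A gene of S phase, read 15 with shHIF-1a and 36.4 with shHIF-2a, against 6.21 with shCTR, and was 5.87-fold higher with shHIF-2a. Fbxo5, which holds back the anaphase-promoting complex, was 4.26-fold higher with shHIF-2a, and the retinoblastoma family gene Rbl1 at least 3.96-fold. Skp2, which targets a CDK inhibitor for destruction, was 2.78-fold higher and the repressor gene E2f8 at least 2.63-fold. Cdk6, a G1 kinase, was the next by size at 1.44-fold. With shHIF-1a over shCTR 4 of 19 were past 2-fold, against 4.08% of all genes, with a median of 0.01. Over genes above the level on the shCTR array it was 3 of 18, against 3.37%.

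On the probe sets that represent them, mitosis genes had larger differences than the replication genes with shHIF-2a over shCTR. Of 18 above the nonspecific level, 13 were at least 2-fold higher with shHIF-2a over shCTR and 0 lower, and their median was 1.53. The shares of all genes were 7.62% and 0.518%. Over genes above that level on the shCTR array it was 10 of 14 higher, against 6.37%, with a median of 1.46. Bub1, a spindle checkpoint kinase, read 7.63 with shHIF-1a and 34.3 with shHIF-2a, against 2.36 with shCTR, and was at least 9.87-fold higher with shHIF-2a. Aurka, a centrosome kinase, was 5.62-fold higher, Cdc20, an activator of the anaphase-promoting complex, 4.15-fold and Tpx2, a spindle protein, 4.0-fold. Prc1, a midzone protein whose probe set can match several transcripts, was 4.03-fold higher, and the centromeric histone gene Cenpa 3.78-fold. With shHIF-2a over shHIF-1a 11 of 18 were past 2-fold, against 1.18% of all genes, with a median of 1.14. With shHIF-1a over shCTR it was 3 of 17, against 4.08%, with a median of 0.44. With the mean of all probe sets, the shHIF-2a over shCTR medians lay close together, at 0.97 for mitosis genes and 0.92 for replication genes. There 9 of 18 mitosis genes and 15 of 34 replication genes were past 2-fold, against 5.32% of all genes. Whether the mitosis and replication medians differ was not tested.

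**Figure D4:**
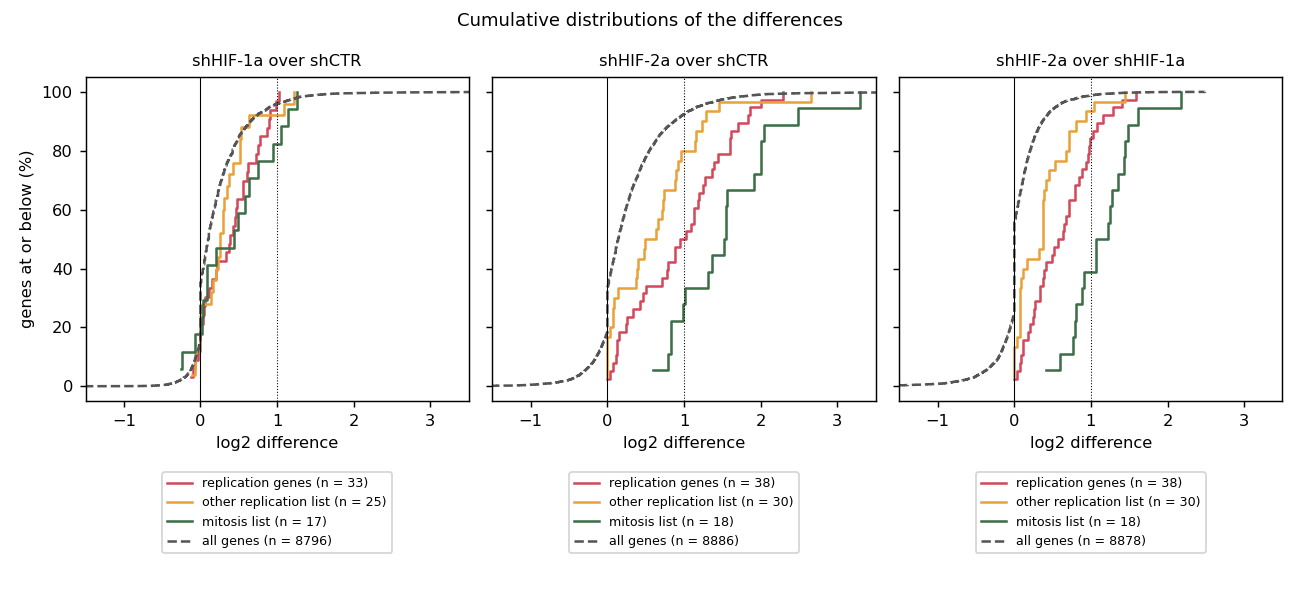
Share of genes (%) at or below each log2 difference in the 3 comparisons, for the replication genes, the list of other replication genes, the mitosis list and all genes above the nonspecific level, drawn from −1.5 to 3.5. With shHIF-2a over shCTR the curves for all genes, other replication genes, replication genes and mitosis genes lie in that order from left to right at their medians of 0.14, 0.56, 0.99 and 1.53.

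Interferon-induced genes had the same order of summed levels over the arrays as the replication genes, but not the same sizes of difference. With shHIF-1a over shCTR, where the median of the replication genes was 0.39, that of the interferon-induced genes was 3.74. All 8 on the array were at least 2-fold higher on each HIF hairpin array than on the shCTR array. However, 6 of the 8 were under the nonspecific level on the shCTR array. The medians of 3.74 for shHIF-1a and 4.59 for shHIF-2a are therefore of lower bounds for the most part. With shHIF-2a over shHIF-1a, where all 8 were above that level, the median was 1.06. Their summed levels were 476.9, 943.1 and 21.6 on the shHIF-1a-labelled, shHIF-2a-labelled and shCTR arrays. Of the 9 mesenchymal progenitor markers, 4 were higher, 4 lower and 1 equal with shHIF-2a over shCTR, with a median of 0.00 on the log2 scale, and 1 of them, Cxcl12, was past 2-fold, at −1.79. The part of these genes, or of the dimmer hybridisation controls on the shHIF-2a-labelled array, in the replication values was not tested.

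The promoter words were spread unequally over the gene lists. An E2F word was found in the windows of 12 of 35 replication genes, or 34.3%, in 35.1% of the 37 other replication genes with a window, and in 5.56% of 18 mitosis genes. Among genes above the nonspecific level the share was 4.95% (362 of 7311), and among all 27025 genes of the table it was 2.6%. The CCAAT box, read as CCAAT on either strand, was in 60% of the replication genes, 48.6% of the other replication genes, 83.3% of the mitosis genes, 43% of the genes above the nonspecific level and 41.1% of all genes of the table. The cell cycle homology region, read as TTTGAA on either strand and known from promoters of late cell cycle genes, was in 8.57% of the replication genes, 21.6% of the other replication genes, 66.7% of the mitosis genes, 13.9% of the genes above the nonspecific level and 20.2% of all genes of the table. A gene with several windows counted if any held the word.

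Within the replication genes the median was somewhat larger with an E2F word, but the word did not separate them. Of the 12 with a word, 11 were above the nonspecific level, 7 were at least 2-fold higher with shHIF-2a over shCTR, and the log2 differences had a median of 1.25, with 0.00 as the lowest and 2.0 as the highest. Of the 23 without a word, 20 were above that level, 8 were at least 2-fold higher, and the median was 0.83, between extremes of 0.08 and 2.29. Some of these values are lower bounds, so their order at the top is not known. On the probe sets that represent them, Mcm3, Mcm5, Cdc6, Pola1 and Uhrf1, with a word, were under that level on the shCTR array. So were Mcm2, Mcm10, Cdc45 and Tk1, without a word. These genes could enter only with a difference upward, and the medians were not taken without them. Whether the word goes with larger values therefore cannot be read from these medians. The ranges overlap almost wholly, and Pold1, with a difference of 0.00, had a word. No match says only that these letters are not in the window.

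**Figure D5:**
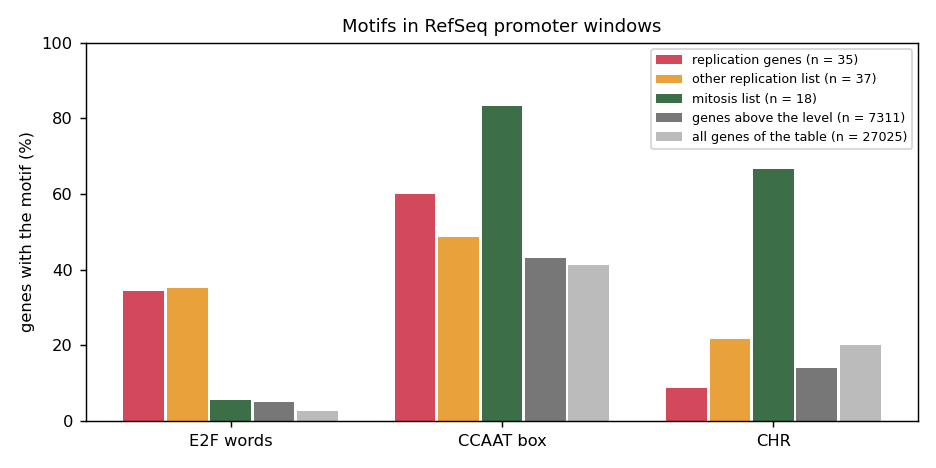
Share of genes (%) whose RefSeq promoter window holds an E2F word, a CCAAT box or the cell cycle homology region (CHR), for the replication genes, the other replication list, the mitosis list, genes above the nonspecific level and all genes of the table. E2F words are in 34.3% of the replication genes and 5.56% of the mitosis genes, and the CHR in 8.57% and 66.7%.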

How the data were processed

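RNA from 3 cultures, 1 per shRNA, was hybridised to 1 Affymetrix array each. The authors deposited RMA values, named so in the submitters' processing notes, and their range shows intensity on a linear scale; its version and settings are not stated by them. Genes were named by the platform annotation through 28898 probe sets with 1 gene, 28689 of them matched by Entrez identifier to RefSeq (GRCm38.p6). From the deposited intensity values, log2 differences were taken without further scaling, after raising readings under 3.47 to that level. A gene entered a comparison if above the level on at least 1 of its arrays, and 2-fold was a rule of size. The code was tested on simulated data. The members and lists were chosen with earlier results of these data known. Values on every array were given for members past 2-fold in any comparison and for at least 1 gene of each role, and up to 6 genes of each other list were named, those with the largest shHIF-2a over shCTR differences. Alternatives were cyclic loess, median centring, the mean of all probe sets, 16 added before log2, a minimum of 16, and low values not raised. A restriction to genes above the level on the denominator array, and the mean of probe sets above the level, were chosen after seeing the data. The precision is limited by the number of arrays. Python 3.11.15, pandas 2.3.3, R 4.3.3 and limma 3.58.1 were used.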

Additional observations from a re-analysis of the deposited data

How the results depend on the processing

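For shHIF-2a over shCTR, the count of replication genes at least 2-fold higher was 19 in the main setting, against 7.62% of all genes. It was 13 after cyclic loess and 13 after median centring, against 4.82% and 4.68%. Each lost Orc6, Cdc6, Mcm10, Prim2, Rfc4 and Tk1. With the mean of all probe sets it was 15, against 5.32%, losing Mcm5, Mcm10, Prim2, Rpa2 and Uhrf1 and gaining Rrm1. The mean of probe sets above the level also gained Rrm1. With low values not raised it was 22, against 9.55%. It was 9 of 20 genes with a minimum of 16 on an array, against 5.52%, and 2 with 16 added before log2. The last setting took the median to 0.41 and, by its construction, shrinks dim genes most: 69 of 8886 genes, 0.777%, were then past 2-fold. For shHIF-2a over shHIF-1a the count of 6 became 2 with the minimum of 16, against 1.08% of all genes. It became 0 with 16 added, against 0.0676%, and the median of the replication genes was then 0.28. For shHIF-1a over shCTR the count of 1 became 0 under cyclic loess, median centring, 16 added or the minimum of 16. The shares of all genes in these settings were 2.41%, 2.45%, 0.33% and 2.73%. The count was 3 with low values not raised, against 5.71%, and 2 with the mean of probe sets above the level, against 3.65%. With the mean of all probe sets it was 1, against 2.55%, but Gins2 in place of Rpa2. The count at least 2-fold lower was 0 in every comparison and setting run, and no median of the replication genes changed sign. Median centring moved the median of all genes from 0.10 to −0.10 for shHIF-1a over shCTR and from 0.14 to −0.09 for shHIF-2a over shCTR. Relative to all genes, the replication medians were 0.28 and 0.30 without and with centring in the first, 0.85 and 0.94 in the second, and 0.61 and 0.65 for shHIF-2a over shHIF-1a. Cyclic loess left 422 genes higher and 68 lower for shHIF-2a over shCTR, against 677 and 46. No paired analysis was possible because each group has 1 array. Signal near the nonspecific level limits the 10 genes given as bounds.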
